A study of Mus musculus with 2 samples.

Results

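Genes that keep chromatin marks and nucleosomes in place through DNA replication were followed in mouse fibroblasts depleted of the deadenylase CCR4b. They were chosen by name, with earlier results of these data known. Dnmt1, Uhrf1 and Hells stand for DNA methylation, and Ezh2, Suz12 and Eed for the Polycomb complex PRC2. Suv39h1 and Cbx5 stand for heterochromatin, and Chaf1a and Chaf1b for chromatin assembly. Of these 10 symbols, 8 had signals here, on 24 of the 45101 probe sets of the array, among 18194 genes that the annotation names alone on a probe set, and 19 of the 24 were measured, as defined below. The signals of Suv39h1 and Chaf1a are not analysed here, and both genes enter the promoter description alone.

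The samples were 2 dishes of NIH3T3, a fibroblast line that was derived from mouse embryos and is immortal, kept in DMEM with 10% fetal bovine serum. Each had been infected with a retrovirus that expresses a short hairpin RNA, which was a control RNAi hairpin in one culture and a hairpin against CCR4b (CNOT6L) in the other. CCR4b is a catalytic subunit of the CCR4-NOT complex, which removes the poly(A) tails of mRNAs, and the comparison asks which mRNAs differ once it is depleted. The labels do not say how many hairpins were used per target or whether infected cells were selected. Each group is 1 array, so no value has a replicate error, no test was possible, and the hairpin and any other difference between the dishes cannot be told apart.

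DNMT1 copies CpG methylation onto the new DNA strand, UHRF1 finds hemimethylated CpGs and brings DNMT1 to them, and the remodeller HELLS opens nucleosomes for this step. In PRC2, EZH2 places methyl groups on lysine 27 of histone H3, SUZ12 holds the complex together and EED binds the finished mark. SUV39H1 methylates lysine 9 of histone H3, HP1 alpha, the product of Cbx5, binds it, and CHAF1A with CHAF1B forms the core of CAF-1, the chaperone that deposits new histones behind the replication fork. Several of these genes are known targets of E2F transcription factors and are transcribed most in dividing cells.

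Promoter sequences of the 5 genes with signals that hold an E2F word are shown, with those of Eed and Chaf1b, which hold none. Of the 5 with it, 4 were at least 2-fold lower, against 4.48% of all measured genes, and Suz12 was 1.43-fold lower. The genes were chosen with earlier results known, and 5 of the 8 measured were 2-fold lower, so this split is only a description. Of the 3 without it, Chaf1b was 2.03-fold lower, Eed was nearly level, and Cbx5 ranged from 2.63-fold lower to slightly higher over its probe sets. A part of E2F factors in these differences was not tested. The windows come from RefSeq (GRCm38.p6) and run from 250 bases before to 50 bases after an annotated transcription start. All 10 genes matched, with 15 windows in all. They were searched on both strands for the E2F words TTTCCCGC, TTTCGCGC, TTTGCCGC and TTTGGCGC, for the cell cycle element called CHR (TTTGAA) and for the box CCAAT, which NF-Y binds. No E2F match overlapped a match of the other words. In the windows below, capitals mark each E2F match, on either strand.
Dnmt1, chr9:20952574-20952873, minus strand: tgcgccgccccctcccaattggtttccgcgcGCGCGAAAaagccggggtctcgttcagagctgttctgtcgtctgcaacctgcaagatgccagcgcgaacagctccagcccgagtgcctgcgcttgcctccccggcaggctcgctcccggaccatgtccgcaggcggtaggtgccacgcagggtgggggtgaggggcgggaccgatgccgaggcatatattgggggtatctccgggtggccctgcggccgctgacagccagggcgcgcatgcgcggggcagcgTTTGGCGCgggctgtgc
Uhrf1, chr17:56304063-56304362, plus strand: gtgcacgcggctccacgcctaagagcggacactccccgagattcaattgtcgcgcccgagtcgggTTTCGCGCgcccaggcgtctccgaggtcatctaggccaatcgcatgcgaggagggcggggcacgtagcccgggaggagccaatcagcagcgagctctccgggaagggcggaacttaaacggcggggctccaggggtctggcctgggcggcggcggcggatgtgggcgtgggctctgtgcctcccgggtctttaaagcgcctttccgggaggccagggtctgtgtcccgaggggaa
Hells, chr19:38930740-38931039, plus strand: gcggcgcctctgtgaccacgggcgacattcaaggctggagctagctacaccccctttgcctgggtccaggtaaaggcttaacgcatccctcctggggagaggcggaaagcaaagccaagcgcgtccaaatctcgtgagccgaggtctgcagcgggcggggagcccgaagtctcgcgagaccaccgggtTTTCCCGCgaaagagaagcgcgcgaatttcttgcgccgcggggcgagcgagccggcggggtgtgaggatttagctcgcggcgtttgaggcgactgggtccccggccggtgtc
Ezh2, chr6:47594981-47595280, minus strand: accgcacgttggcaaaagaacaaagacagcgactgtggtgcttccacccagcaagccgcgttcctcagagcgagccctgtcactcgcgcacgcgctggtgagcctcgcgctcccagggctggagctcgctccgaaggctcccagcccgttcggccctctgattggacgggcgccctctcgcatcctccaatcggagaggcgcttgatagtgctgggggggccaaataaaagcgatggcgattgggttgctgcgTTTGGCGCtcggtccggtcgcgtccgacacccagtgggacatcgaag
Suz12, chr11:79992856-79993155, plus strand: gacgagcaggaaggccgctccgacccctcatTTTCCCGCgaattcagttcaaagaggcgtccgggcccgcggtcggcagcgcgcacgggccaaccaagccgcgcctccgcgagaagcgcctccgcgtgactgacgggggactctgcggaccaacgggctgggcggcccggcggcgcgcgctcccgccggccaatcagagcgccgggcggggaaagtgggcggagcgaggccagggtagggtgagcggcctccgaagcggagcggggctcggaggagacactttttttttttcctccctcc
Eed, chr7:89980927-89981226, minus strand: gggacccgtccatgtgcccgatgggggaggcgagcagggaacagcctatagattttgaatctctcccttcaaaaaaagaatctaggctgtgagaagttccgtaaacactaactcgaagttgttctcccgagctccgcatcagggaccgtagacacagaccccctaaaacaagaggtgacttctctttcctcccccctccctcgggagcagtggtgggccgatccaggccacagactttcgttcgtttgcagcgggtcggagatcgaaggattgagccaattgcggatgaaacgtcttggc
Chaf1b, chr16:93883651-93883950, plus strand: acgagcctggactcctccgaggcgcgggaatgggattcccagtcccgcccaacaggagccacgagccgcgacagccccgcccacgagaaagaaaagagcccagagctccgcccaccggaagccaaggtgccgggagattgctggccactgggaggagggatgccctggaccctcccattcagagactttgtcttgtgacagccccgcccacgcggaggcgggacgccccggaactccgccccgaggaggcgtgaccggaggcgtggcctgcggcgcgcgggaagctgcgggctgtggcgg

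An E2F word lay in a window of 6 of the 10 genes, against 4.61% of the 9663 measured genes with a window. Counted by window, it was in 6 of 15 (40.0%), against 3.80% of the windows of measured genes and 2.26% of all 32851 windows. The 6 were Dnmt1, Uhrf1, Hells, Ezh2, Suz12 and Suv39h1. In Hells the word starts 62 bases before the transcription start, and in Ezh2 it starts 3 bases after it. Dnmt1 has a match 219 bases before and another 33 bases after the start of the window shown, and none in its other windows. Eed, Cbx5, Chaf1a and Chaf1b had no match, which says only that these letters are not in these windows. The CHR word was in 3 of the 15 windows (20.0%, against 12.0% for measured genes), those of Dnmt1, Suz12 and Eed. A CCAAT box was in 10 of 15 (66.7%, against 37.9%). The windows had a median GC content of 63.0%, close to the 60.7% of measured genes. Their median ratio of observed to expected CpGs was higher, 0.91 against 0.74 for measured genes, and every E2F word holds a CpG. Shares were corrected for neither.

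**Figure D1:**
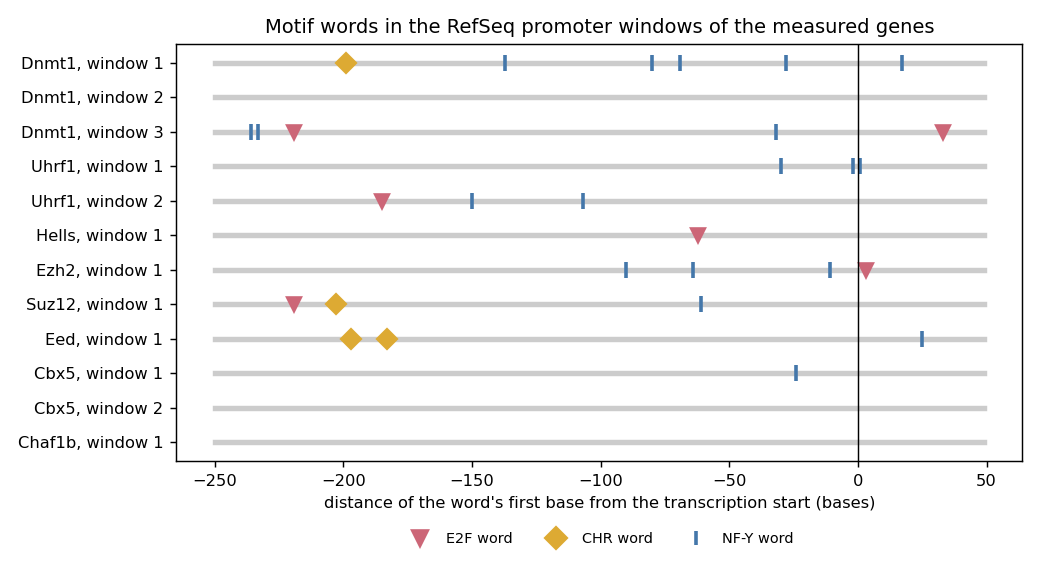
Positions of motif words in the RefSeq promoter windows of the 8 measured genes. The horizontal axis is the distance in bases from the transcription start to the first base of a match, each grey bar is a window, and markers show E2F words (triangles), CHR words (diamonds) and NF-Y words (CCAAT, ticks) on either strand. E2F words lie in windows of Dnmt1, Uhrf1, Hells, Ezh2 and Suz12 and in none of Eed, Cbx5 or Chaf1b.

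Signals are the deposited intensities in arbitrary units. Values under a floor of 8.07 units, the median of all values of both arrays, were raised to it, and the log2 ratio is that of the CCR4b RNAi array to the control array. Each gene was represented by its brightest probe set, judged by the mean log2 value of both arrays. With this rule 11915 genes were measured, meaning that the brighter array reached the floor. All 8 genes with a probe set passed this filter, each on both arrays.

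Genes of replication-coupled chromatin maintenance were lower as a group in the CCR4b RNAi culture. The list was chosen with earlier results of these data known, so its shares are a description and not an independent result. Of the 8 measured, 5 showed a reduction of at least 2-fold and 0 an increase of that size, whereas 4.48% of all measured genes were 2-fold lower and 3.74% were 2-fold higher. The 5 were Hells, Ezh2, Uhrf1, Dnmt1 and Chaf1b, and Dnmt1 and Chaf1b lay so near the threshold that they left it with quantile normalization or a loess correction, which gave 3. At 1.5-fold the same 5 were lower and 0 were higher, against 14.6% and 11.3% of all genes. The median log2 ratio of the 8 was -1.02, and that of all measured genes -0.070. In RNA of whole cultures, fewer cells that express a gene and less RNA per cell cannot be told apart.

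By the size of the difference, the order was Hells (log2 ratio -1.66), Ezh2 (-1.32), Uhrf1 (-1.27), Dnmt1 (-1.03), Chaf1b (-1.02), Suz12 (-0.52), Cbx5 (-0.38) and Eed (0.017). Over 4550 genes with several probe sets, ratios of the same gene scattered with a robust SD of 0.33 log2 units, which makes 0.47 for a difference between 2 ratios. By that yardstick the only neighbours further apart than it were Chaf1b and Suz12, with a gap of 0.50. With probe sets open to cross-hybridisation left out, Suz12 was at -0.75 and Chaf1b at -1.02, within the yardstick of each other. The yardstick holds disagreement between probe sets and leaves out the variation between cultures.

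**Figure D2:**
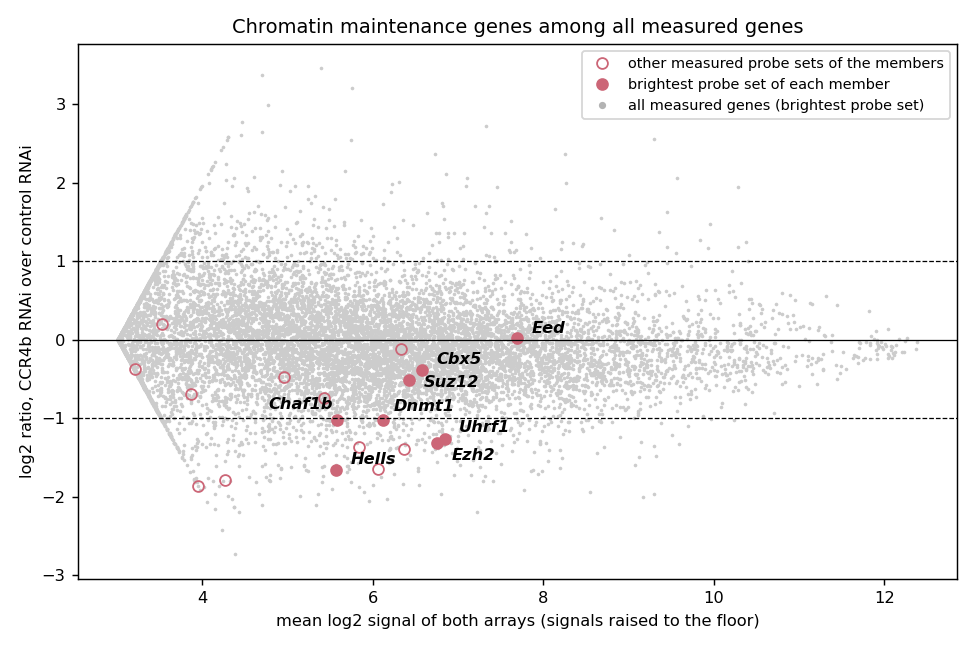
Log2 ratio of CCR4b RNAi over control RNAi against mean log2 signal of both arrays, for all 11915 measured genes (grey) and for the chromatin maintenance genes (filled circles, their brightest probe set; open circles, their other measured probe sets). Dashed lines mark 2-fold. Hells, Ezh2, Uhrf1, Dnmt1 and Chaf1b lie below the lower line and Eed lies at 0.017.

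The maintenance methylation genes Dnmt1, Uhrf1 and Hells were lower on all 7 of their measured probe sets. Of all 11915 measured genes, 6671 were lower to any extent, and probe sets of the same gene on the same arrays are not independent readings. Uhrf1 read 178 units on the control array against 73.8 on the other on its brighter probe set (1415810_at), 2.41-fold lower. On its dimmer one (1415811_at) it read 35.8 and 10.4 units, 3.44-fold lower. Both probe sets thus gave a difference of more than 2-fold. Among genes of like signal, taken as 10 equal classes, 2.18% and 1.43% had a ratio as low.

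Dnmt1 read 98.9 units in control cells against 48.6 in depleted cells on the probe set that stood for it (1422946_a_at), 2.04-fold lower. The next (1435122_x_at) read 119 and 37.7 units, 3.15-fold lower. The last (1447877_x_at) read 29.5 units in the control and passed below the floor, at least 3.65-fold lower. The 2 larger differences come from probe sets whose suffix marks possible cross-hybridisation, and the probe set with 2.04-fold has no such suffix. With the median over its measured probe sets the log2 ratio of Dnmt1 was -1.65.

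Hells, the ATP-dependent remodeller, had the largest difference among the 8 genes, 84.5 units in control cells against 26.7 in depleted cells (1417541_at, 3.16-fold lower). Only 0.587% of genes of like signal had a ratio as low. Its second probe set (1430139_at) read 36.7 and 26.4 units, 1.39-fold lower, and 20.1% of genes of like signal had a ratio as low. A further probe set was below the floor on both arrays. The direction was shared but the sizes differed by 1.19 log2 units, where the median over 2716 genes with 2 probe sets that exceeded the floor on each array was 0.32.

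The 3 core genes of PRC2 did not differ alike. Ezh2, the catalytic subunit, has 1 probe set, with 171 units in control cells against 68.4 in depleted cells (1416544_at, 2.50-fold lower). A ratio as low was found in 1.76% of genes of like signal. Eed, which reads the mark, gave 206 and 209 units (1448653_at), a 1.01-fold difference, and was below the floor on its other probe set. Its log2 ratio of 0.017 became -0.077 with scaling by array medians and 0.18 with quantile normalization. The log2 ratio of Ezh2 minus that of Eed was -1.34, a difference larger than the 0.47 expected between probe sets.

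Suz12, the scaffold of PRC2, lay between them and was below its control value on each of its 5 measured probe sets. The probe set that stood for it (1420021_s_at) read 103 and 71.7 units, 1.43-fold lower, and 19.6% of genes of like signal had a ratio as low. The others above the floor on both arrays gave 84.1 and 77.6 units (1427253_s_at, 1.08-fold lower), 55.8 and 33.3 units (1452364_at, 1.68-fold) and 18.5 and 11.5 units (1420022_s_at, 1.62-fold). None reached 2-fold. The 1.08-fold difference is smaller than the scatter of ratios at that signal, a robust SD of 0.43, and 3 of the 4 carry a suffix for possible cross-hybridisation. The one that does not, 1452364_at, gave a log2 ratio of -0.75. Of the remaining pair, one read 10.5 units in the control and passed below the floor, at least 1.30-fold lower, and the other was below the floor on both arrays.

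Cbx5, which encodes HP1 alpha, depended on the probe set. The one that stood for it (1454636_at) gave 109 units in control cells against 83.5 in depleted cells, 1.30-fold lower. A ratio as low was found in 29.3% of genes of like signal. A pair of others gave 134 and 51.0 units (1450416_at, 2.63-fold lower) and 91.8 and 35.5 units (1421934_at, 2.58-fold lower). For these the shares were 1.09% and 1.51%. The pair therefore agreed on a difference of more than 2-fold that the first did not show. Another (1421933_at) was near the floor with 10.7 and 12.3 units, and the remaining one was below it. The spread over the 4 measured probe sets was 1.59 log2 units, where the median over 435 genes with 4 probe sets that exceeded the floor on each array was 0.68. The median over them was -0.88, so Cbx5 counts as 1.5-fold lower by that choice and not by the brightest probe set. The annotation ties the pair to a RefSeq mRNA of Cbx5 and 1454636_at to another kind of sequence entry, and the part of this in the disagreement was not tested.

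Chaf1b, the p60 subunit of CAF-1, gave 68.1 units in control cells against 33.5 in depleted cells (1423877_at, 2.03-fold lower), and 4.70% of genes of like signal had a ratio as low. Its other probe set was below the floor on both arrays.

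**Figure D3:**
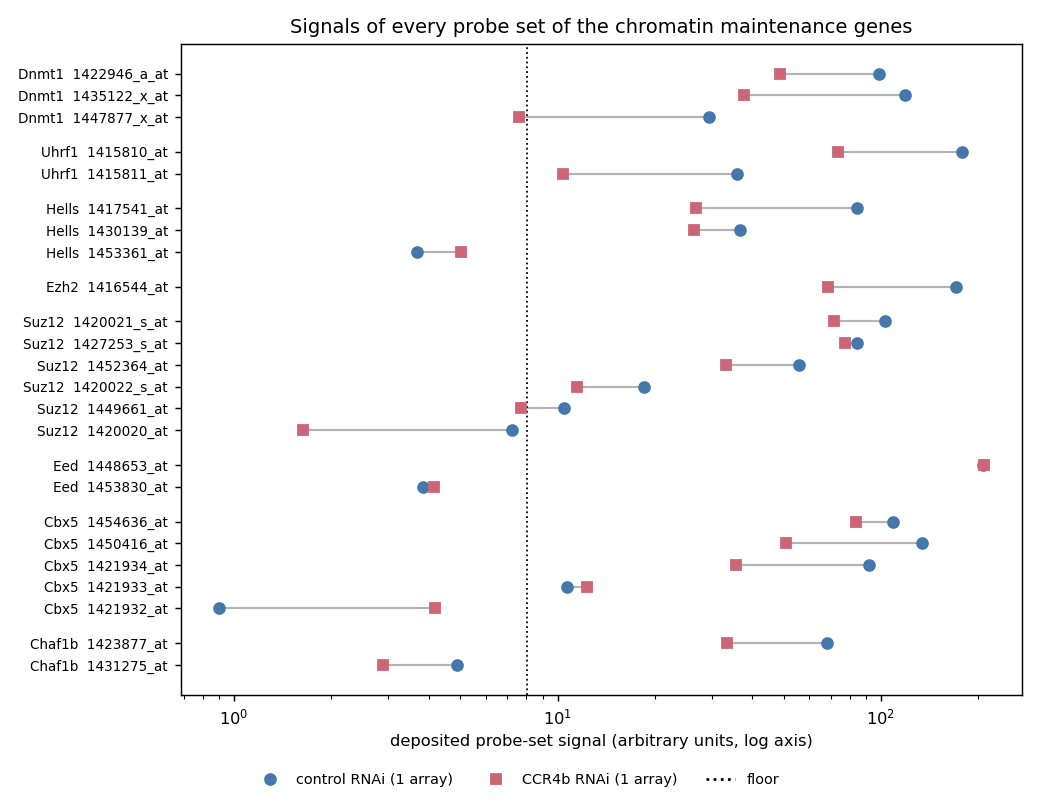
Deposited signal of each of the 24 probe sets in the control RNAi culture (circles) and in the CCR4b RNAi culture (squares), 1 array each, on a log axis in arbitrary units, with the floor of 8.07 units as a dotted line. Of the 19 measured probe sets, 17 are lower after CCR4b RNAi, 10 of them at least 2-fold, and the exceptions are Eed 1448653_at and Cbx5 1421933_at. By their brightest probe sets, 6671 of all 11915 measured genes were lower to any extent and 4.48% at least 2-fold.

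Paralogues of these genes, which were picked for this comparison after their values had been seen, differed from them by more than the 0.47 yardstick in 4 of 6 cases. That yardstick is an SD and not a limit, so probe sets of the same gene can also differ by more. Uhrf2 read 126 and 109 units (log2 ratio -0.21), and the log2 ratio of Uhrf1 minus that of Uhrf2 was -1.06. Ezh1, which can replace Ezh2 in PRC2 and is known from resting cells, read 32.8 and 40.5 units (0.30). The difference between Ezh2 and Ezh1 was -1.62. Another Ezh1 probe set read 19.1 and 18.3 units (-0.061). Both gaps, taken from the probe set that stood for each gene, are over the 0.47 expected between probe sets. Of the de novo methyltransferase genes, Dnmt3a read 49.1 and 30.6 units (-0.68), so that Dnmt1 minus Dnmt3a was -0.34, within that yardstick. Its other measured probe sets had log2 ratios of -0.45, 0.60 and, passing below the floor, -0.42 or less. Dnmt3b read 16.2 and 13.2 units (-0.30). Of the HP1 paralogues, Cbx1 read 163 and 127 units (-0.36), as Cbx5 did on its first probe set, and Cbx3, close to the floor, had 0.16. Dnmt3b and Cbx3, both counted among the 4, are dim. Among genes of like signal, ratios scattered with robust SDs of 0.68 for Dnmt3b and 0.84 for Cbx3.

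The remaining PRC2 genes held no 2-fold difference in 8 of 8 measured, and their median log2 ratio was -0.033. Most measured genes held none either, since 4.48% were 2-fold lower and 3.74% were 2-fold higher. Genes of the histone-binding subunits were bright. Rbbp4, which CAF-1 shares with PRC2, read 1636 and 1207 units (1.36-fold lower), and Rbbp7 read 1652 and 1316 units (1.26-fold lower). Both readings come from probe sets with a suffix for possible cross-hybridisation. The brightest probe sets without it gave 1.43-fold lower for Rbbp4 and 1.29-fold lower for Rbbp7. The accessory factor Aebp2 read 443 and 325 units (1.36-fold lower) but gave 14.6 and 18.8 units on a dim probe set. Mtf2, another accessory factor, read 88.0 and 136 units (1.54-fold higher), with 29.1 and 23.1 units on another probe set. Phf19 was 1.83-fold higher from a control value at the floor, 8.10 and 14.8 units. Phf1 (-0.16) was nearly level, and so was Jarid2 (0.098) on the probe set that stood for it. Another Jarid2 probe set read 13.5 and 18.5 units (0.45), and both carry a suffix for possible cross-hybridisation. By the probe set that stood for each, Ezh2 had the largest difference of the 11 PRC2 genes measured on these 2 arrays.

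Of 22 measured genes of PRC1 and H2A ubiquitination, 3 had at least 2-fold less signal and 0 had 2-fold more, with a median log2 ratio of -0.074. That is 13.6% lower, against 4.48% of all measured genes. They were Ring1, an E3 ligase subunit (26.5 and 11.1 units, 2.39-fold lower), L3mbtl2 (25.5 and 12.3 units, 2.08-fold) and Bap1, the H2A deubiquitinase (89.0 and 41.9 units, 2.13-fold, and 1.62-fold on its second probe set). Among 18 other measured DNA methylation genes, 2 were 2-fold lower (11.1%, against 4.48% of all measured genes) and 1 was 2-fold higher (3.74% of all measured genes), with a median of -0.26. Cdca7, the partner of HELLS, read 64.7 and 29.3 units (2.21-fold lower). Ahcy, which clears the by-product of methyl transfer, read 421 and 197 units (2.14-fold lower). Tet2, which oxidises methylcytosine, read 10.7 and 26.5 units (2.46-fold higher), and 10.8 and 20.6 units on its second probe set, so both were dim.

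Other heterochromatin genes had a median log2 ratio of -0.28, and 1 of 26 was 2-fold lower (3.85%, near the 4.48% of all measured genes). This was Suv39h2, the second H3 lysine 9 methyltransferase of its kind, with 20.8 and 10.0 units (2.08-fold lower). On another probe set it passed from 18.7 units to below the floor, at least 2.31-fold lower, and a dim one went the other way.

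Other histone chaperones and assembly factors were the chromatin list with the highest share of 2-fold lower genes outside the 8, with 5 of 22 (22.7%, against 4.48% of all genes), 0 higher and a median of -0.43. Asf1b, which hands histones H3 and H4 to CAF-1 in dividing cells, read 119 and 45.6 units (2.61-fold lower). Dnajc9, a histone co-chaperone, read 240 and 97.0 units (2.48-fold lower). Nasp, a carrier of free H3 and H4, read 243 and 93.9 units (2.59-fold lower) on a probe set open to cross-hybridisation, while 2 probe sets near the floor gave the opposite sign. The others, named after their values were seen because they complete the count, were Mms22l (2.17-fold lower, 1.24-fold on its dimmer probe set) and Hat1, the histone acetyltransferase of new H4 (270 and 125 units, log2 ratio -1.11).

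**Figure D4:**
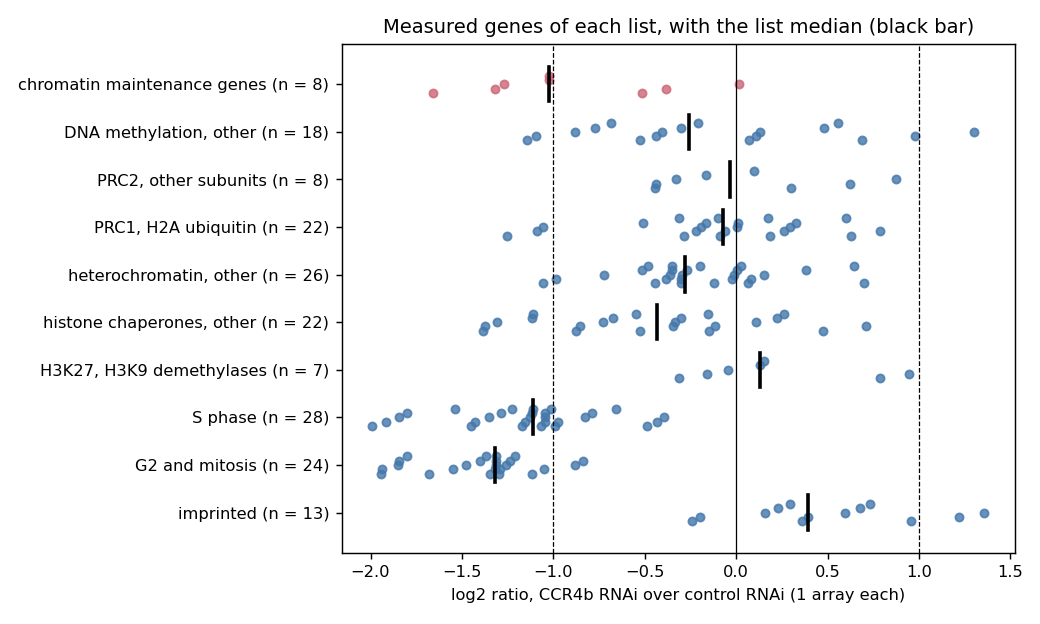
Log2 ratios (CCR4b RNAi array to control array) for the measured genes of each list (points, 1 per gene) with the list's median (black bar) and dashed lines at 2-fold. The chromatin maintenance genes have a median of -1.02, S phase genes -1.11, G2 and mitosis genes -1.32, and other PRC2 subunits -0.033.

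Proliferation genes differed in the same direction. Of 28 measured S phase genes 20 passed 2-fold downwards (71.4%, against 4.48% of all measured genes) and 0 upwards (against 3.74%). Their median log2 ratio was -1.11, with a range from -1.99 to -0.40. Of 24 G2 and mitosis genes 22 were 2-fold lower (91.7%), with a median of -1.32. Hells, Ezh2, Uhrf1, Dnmt1 and Chaf1b lie inside the range of the S phase genes, as does Suz12, and Eed lies above it. Cbx5 lies just above that range by the probe set that stood for it (-0.38, against an upper end of -0.40) and inside it by its median over probe sets (-0.88). The part of proliferation in the chromatin genes' ratios was not tested.

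The targeted gene, Cnot6l, was lower on each of its 4 probe sets, from 102 to 43.0 units on the brightest (2.38-fold). The arrays had medians of 7.81 (control) and 8.34 units (CCR4b RNAi), and 3'/5' signal ratios of 1.35 and 1.46 for Actb and 0.824 and 0.819 for Gapdh. All 11 fibroblast markers were above the floor on both arrays, with a summed signal of 19398 units in control cells and 22647 in depleted cells. They did not move alike, with log2 ratios from -0.76 (Thy1) to 1.24 (Sparc). Of the other cell types' markers, 2 of 6 epithelial, 4 of 6 macrophage and blood, 1 of 6 myoblast and adipocyte and 0 of 4 endothelial ones were measured, with summed signals of at most 77.3 units per list and Ptprc below the floor. Among the macrophage and blood markers Cd68 had a log2 ratio of -1.35 and Cd14 of 0.84. The part of other cells in the results was not tested.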

How the data were processed

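Total RNA of 2 NIH3T3 cultures, 1 per group by the knockdown label, was hybridised to Affymetrix 430 2.0 mouse arrays. The deposited values are intensities on a linear scale that the authors made in GCOS with a global normalization, as the series design text states. Neither the GCOS version nor a scaling target is given in the sources used here, and the table holds no detection calls. With 1 array per group the number of arrays limits the precision, and no test was run.

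Of the probe sets, 34958 have 1 gene symbol in the platform annotation, 932 have several and 9211 are unnamed here. Symbols were checked through RefSeq gene IDs (34754 matched). Signals were raised to the 50th percentile of all values, and log2 ratios, the thresholds of 2-fold and 1.5-fold and the 10 signal classes were computed from them in Python 3.11.15. A probe set below the floor on 1 array gives a bound, written "at least". The ratio steps were tested on simulated data. The 8 alternatives are array median scaling, quantile normalization, loess (span 0.3), a floor at the 25th or at the 75th percentile, log2 of signal plus 1 in place of a floor, the median over probe sets, and leaving out _x_at and _s_at probe sets.

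Named genes were every probe set of the members, all other PRC2 genes, Cnot6l, and up to 3 genes per direction and chromatin list with at least 2-fold difference above the floor on both arrays. Members and lists were chosen with earlier results of these data known.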

Additional observations from a re-analysis of the deposited data

How the results depend on the processing

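The 5 genes at least 2-fold lower became 3 with quantile normalization and 3 with the loess correction, which took Dnmt1 to -0.94 and -0.92 and Chaf1b to -0.97 and -0.97 on the log2 scale. With the floor at the 75th percentile there were 4, and the other alternatives gave 5. The count at 1.5-fold was 5 or 6, and the median log2 ratio lay between -1.12 and -0.94. Of 64 log2 ratios of single members under alternatives, 60 moved by less than the spread between probe sets, 4 by more (Dnmt1, Cbx5 and Hells, the last under 2 of them), and no member at least 1.5-fold lower changed sign. The sign of Eed changed with array median scaling. Among named genes outside the members, 3 moved by more than that spread without changing sign, each with the median over measured probe sets. Their log2 ratios went from -0.45 to -0.080 for Aebp2, from 0.62 to 0.28 for Mtf2 and from 1.22 to 0.87 for Meg3. Nasp turned from lower to higher, to a log2 ratio of 0.43, both with the median over its probe sets and without _s_at probe sets, because its dim probe sets then outnumber or replace the bright one. Over all genes, 534 were 2-fold lower, against 1791 with the floor at the 25th percentile, 265 at the 75th and 924 with no floor. The deposited table holds no detection calls, so signals near the floor could not be told from background. No paired analysis was possible because each group has 1 array.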

Other observations

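Genes whose silencing is known to need DNA methylation were examined as a readout of the methylation machinery. Of 20 germline genes of this kind, 18 had a probe set, and for 15 of them the brightest probe set was below the floor on both arrays. The 3 measured, named after their values were seen because they complete the count, were Brdt (33.6 units in control cells, 30.7 in depleted cells), Magea4 (7.36 and 8.09 units) and Asz1 (7.89 and 9.28 units). Only Brdt was above the floor on both arrays, and its log2 ratio of -0.13 is below a 1.5-fold difference. Most measured genes did not reach 1.5-fold either (14.6% were lower and 11.3% higher). Magea4 and Asz1 were below the floor in control cells and near it in depleted cells, so their ratios are bounds. Raising the control values to the floor keeps these ratios small, so they cannot show whether the genes differed. Differences below the floor could not be seen, so the list as a whole gave no readout of the methylation machinery.

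Imprinted genes, whose expression from 1 parental allele depends on methylation marks, were higher in their median, 0.39 on the log2 scale over 13 measured of 24 listed, against -0.070 for all genes. Of them 6 were at least 1.5-fold higher and 0 were 1.5-fold lower, against 11.3% and 14.6% of all genes. Igf2, a fetal growth factor gene, read 105 and 269 units (2.56-fold higher). Meg3, a long noncoding RNA gene, read 232 and 541 units (2.33-fold higher), and its 9 other measured probe sets ran from -0.46 to 1.48 on the log2 scale. Alleles are not distinguished on this array.

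Demethylases of H3 lysine 27 and lysine 9 had a median log2 ratio of 0.13, and 0 of 7 measured reached 2-fold in either direction. Most measured genes did not reach it either, with 4.48% lower and 3.74% higher.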
